A study of Rattus norvegicus with 12 samples.

Results

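The genes of the G1 phase of the cell cycle described here were the D-type cyclins Ccnd1, Ccnd2 and Ccnd3, cyclin E1 (Ccne1), the cyclin-dependent kinase (CDK) inhibitors Cdkn1a, Cdkn1b, Cdkn1c, Cdkn2b and Cdkn2c, and the transcription factor Myc. They were taken by symbol from a deposited table of read counts per gene, which held 30045 symbols, and all 10 had a row. RNA came from ovarian theca-interstitial cells of wild-type female Sprague Dawley rats at postnatal day 30, grown on fibronectin-coated plates in McCoy's 5A medium and exposed for 48 h. There were 4 libraries from cells given rat interleukin-1β (IL-1β, dose not given in the sources used here), 4 from cells given lipopolysaccharide (LPS, a component of the bacterial cell wall) at 1 µg/ml, and 4 from cells given vehicle, here called control. The labels do not say whether the libraries of a group came from separate animals or cultures, and the p-values therefore speak only to the spread among these libraries, which may be technical.

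A cell in G1 decides whether to copy its genome. D-type cyclins switch on CDK4 and CDK6, and cyclin E switches on CDK2. These kinases phosphorylate the retinoblastoma protein, which then releases the E2F factors that drive S phase genes. Inhibitors of the Ink4 family, here Cdkn2b (p15) and Cdkn2c (p18), bind CDK4 and CDK6. Those of the Cip/Kip family, here Cdkn1a (p21), Cdkn1b (p27) and Cdkn1c (p57), bind cyclin-CDK complexes, CDK2 complexes above all. MYC is an early target of growth signals that promotes ribosome production and metabolism and can repress several of these inhibitors. Theca-interstitial cells surround the ovarian follicle and make androgens, and the title of the study names proliferation of these cells beside androgen production as an outcome.

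Counts summed to between 23193408 and 26836323 per library with IL-1β, between 25643226 and 28698783 with LPS and between 20873934 and 32090924 in control. Levels are in CPM, counts scaled to a common library total, after TMM scaling, which corrects those totals for a shifted composition. They are not divided by gene length, so levels of different genes are not compared. Changes are log2 fold changes with their standard error (SE) from edgeR's quasi-likelihood test, fitted to 17330 genes that passed a filter on low counts. A gene was called when its p, adjusted over all 17330 genes by the Benjamini-Hochberg method, was under 0.05. All 10 genes passed the filter. Both treatments were compared with the same 4 control libraries, so their results are not independent of each other. The 10 genes and the gene lists used below were chosen with earlier results of these data known. Their shares beside those of all genes are therefore descriptions, since an excess could come from the choice.

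Of the 10 genes, IL-1β left 3 called higher (Ccnd1, Cdkn1b and Myc), 5 called lower (Ccnd2, Ccnd3, Cdkn1a, Cdkn2b and Cdkn2c) and 2 not called (Ccne1 and Cdkn1c). Of all genes tested, 47.7% were called with IL-1β, 24.7% higher and 23.0% lower. With LPS, 4 were called higher (Ccnd1, Cdkn1b, Cdkn1c and Myc), 5 lower (Ccnd2, Ccnd3, Cdkn1a, Cdkn2b and Cdkn2c) and 1, Ccne1, was not called. Of all genes tested, 42.5% were called with LPS, 22.5% higher and 20.0% lower. The split of calls depended on scaling, since higher genes made up 4273 of 8261 calls with IL-1β and 3898 of 7358 calls with LPS under TMM (51.7% with IL-1β), but 64.1% of calls with IL-1β and 63.4% with LPS when library size alone was used.

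The changes were modest in size. The median size of the log2 change over the 10 genes was 0.30 with IL-1β, beside 0.17 over all genes tested, and 0.30 with LPS, beside 0.15. The treated and control libraries did not overlap for 8 of the 10 genes with IL-1β, beside 44.2% of all genes tested. For LPS this held for 7 of the 10, beside 38.3%. In these bulk samples, fewer cells of a type and less RNA per cell cannot be told apart.

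**Figure D1:**
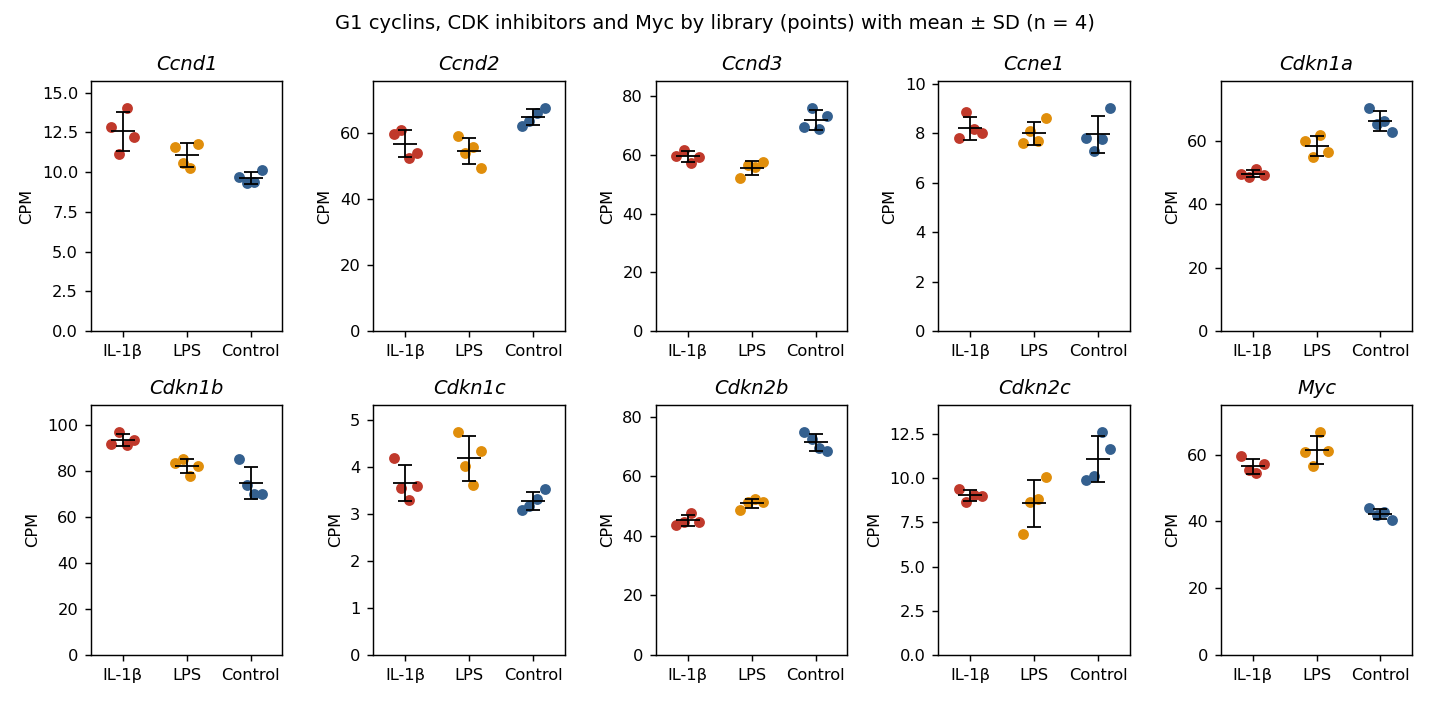
Level of each of the 10 genes in CPM (y axis, from 0) in the 4 libraries with IL-1β, the 4 with LPS and the 4 controls (x axis); points are libraries, and the bars give the mean and 1 SD. Myc libraries with either treatment lie above every control library, Cdkn2b and Ccnd3 libraries lie below, and the 3 groups of Ccne1 libraries overlap.

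Markers of other cell types moved with the treatments as well. Smooth muscle markers, such as Acta2 and Tagln, summed to 1610 to 1836 CPM with IL-1β, 1951 to 2225 CPM with LPS and 5093 to 5527 CPM in control, with 7 of 8 called lower with each treatment and 1, Des, called higher with IL-1β. Macrophage markers summed to 118 to 129 CPM with IL-1β, 110 to 117 CPM with LPS and 167 to 179 CPM in control, with 10 of 16 called lower and 2 higher (Cd14 and Cd163) with IL-1β, and 12 lower and 2 higher (Cd14 and Emr1) with LPS. Endothelial markers went the other way, with 12 of 12 called higher with IL-1β and 11 of 12 with LPS. They summed to 419 to 477 CPM with IL-1β, 291 to 393 CPM with LPS and 196 to 232 CPM in control. Granulosa markers summed to 1690 to 2009 CPM with IL-1β, 1445 to 1662 CPM with LPS and 1209 to 1257 CPM in control, with 6 of 10 called higher and 2 lower with IL-1β, and 4 higher and 1 lower with LPS. Among them Foxl2, a defining granulosa transcription factor, averaged 58.4 CPM with IL-1β, 53.3 CPM with LPS and 55.1 CPM in control.

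Markers of the labelled cell type were present in every group, with Nr5a1, a steroidogenic transcription factor, at means of 86.1 CPM with IL-1β, 78.6 CPM with LPS and 70.6 CPM in control. Cyp17a1, the enzyme of androgen synthesis that defines theca cells, was low in control, at 0.537 CPM on average, against 15.5 CPM with IL-1β and 3.39 CPM with LPS. Insl3, a theca hormone, had 4 to 20 counts per library. The 13 theca markers summed to 1028 to 1082 CPM with IL-1β, 948 to 1003 CPM with LPS and 540 to 581 CPM in control, with 8 called higher and 3 lower with IL-1β, and 6 higher and 4 lower with LPS. Surface epithelium markers summed to 122 to 133 CPM with IL-1β, 97.7 to 111 CPM with LPS and 91.4 to 94.5 CPM in control, with 4 of 8 called higher and 3 lower with each treatment. T, B and NK cell markers summed to at most 5.41 CPM with IL-1β, 6.12 CPM with LPS and 8.33 CPM in control, and Cd3e, Ms4a1 and Klrd1 had at most 10 counts in any library. Of the 2 of these 8 that could be tested, 1 was called lower with each treatment. No marker of these lists was at 0 in every library. The part of these cell types in the changes of the G1 genes was not tested.

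The RefSeq table of rat promoters (build GRCr8) held 6 of the 10 genes, and the 250 bases upstream of the annotated start are shown for 4 of them. Where a gene had several entries, only the first was used, so a window may not lie at the main start of its gene. Ccnd3, Cdkn1a and Cdkn2b are shown because they carried the clearest falls of a cyclin, a Cip/Kip inhibitor and an Ink4 inhibitor, and Cdkn1b because it is an inhibitor that was higher. Capitals mark matches to the motifs described after the sequences, which read 5′ to 3′ on the strand of the gene.
Ccnd3, chr9:20897876-20898125, minus strand: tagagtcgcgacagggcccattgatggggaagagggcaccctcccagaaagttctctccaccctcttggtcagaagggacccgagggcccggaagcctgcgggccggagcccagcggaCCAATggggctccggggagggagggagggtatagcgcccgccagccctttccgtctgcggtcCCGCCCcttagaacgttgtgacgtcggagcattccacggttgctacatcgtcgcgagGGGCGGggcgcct
Cdkn1a, chr20:7150682-7150931, plus strand: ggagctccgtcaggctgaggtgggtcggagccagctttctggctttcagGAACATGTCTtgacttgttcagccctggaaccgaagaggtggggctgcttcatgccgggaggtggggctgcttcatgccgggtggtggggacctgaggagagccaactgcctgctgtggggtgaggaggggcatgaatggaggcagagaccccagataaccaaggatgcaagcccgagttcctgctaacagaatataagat
Cdkn1b, chr4:169491254-169491503, plus strand: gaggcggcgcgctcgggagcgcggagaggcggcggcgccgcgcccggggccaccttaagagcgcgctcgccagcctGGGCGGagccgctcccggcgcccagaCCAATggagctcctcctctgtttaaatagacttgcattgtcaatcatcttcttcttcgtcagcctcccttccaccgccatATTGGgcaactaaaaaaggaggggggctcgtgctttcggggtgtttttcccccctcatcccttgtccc
Cdkn2b, chr5:109134856-109135105, minus strand: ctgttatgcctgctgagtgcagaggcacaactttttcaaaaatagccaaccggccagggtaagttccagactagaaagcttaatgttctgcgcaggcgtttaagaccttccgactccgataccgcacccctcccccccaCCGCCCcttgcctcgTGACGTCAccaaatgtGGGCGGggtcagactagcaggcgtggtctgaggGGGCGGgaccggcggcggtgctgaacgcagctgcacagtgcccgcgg

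The windows were searched on both strands, and the same search over 33469 RefSeq promoter windows of this length gave the background. Percentages in brackets are shares of windows with at least 1 match. G and C made up 58.8% to 72.8% of the 6 windows, beside a median of 51.2% over all windows. The background was not matched for this. The Cdkn2b window held 3 GC boxes (GGGCGG, in 30.5% of all windows) and a cAMP response element (TGACGTCA, in 1.59%) at 96 to 89 bases upstream of the start. The Cdkn1a window held a match to the p53 half-site consensus (in 6.64%) at 201 to 192 bases upstream. The Ccnd3 window held 2 GC boxes and 1 CCAAT box (CCAAT, in 34% of all windows), and the Cdkn1b window 1 GC box and 2 CCAAT boxes. Of the windows not shown, Ccne1 had 3 GC boxes and 1 match to the κB consensus (in 3.54%), and Cdkn2c had 1 GC box and 1 match to the p53 half-site consensus. The other motifs searched had no match in the 6 windows, which says only that these letters are not in this stretch: the E-box bound by MYC and MAX (CACGTG, in 5.59%), the AP-1 site (TGANTCA, in 6.34%), and the E2F site (TTTCCCGC, TTTCGCGC, TTTGCCGC or TTTGGCGC, in 1.73%). None of the motifs shown in capitals overlapped another. A match is a run of letters and not evidence of binding.

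**Figure D2:**
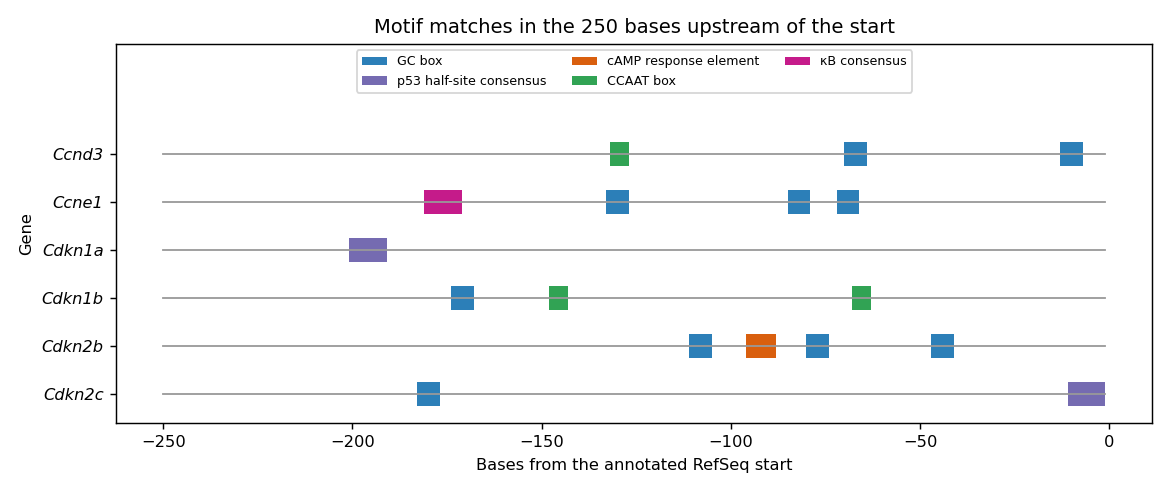
Motif matches (coloured blocks, to scale) in the 250 bases upstream of the RefSeq start of 6 genes; the x axis gives the distance from the start in bases. Cdkn2b holds 3 GC boxes around 1 cAMP response element, and Cdkn1a holds 1 p53 half-site match.

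Among the D-type cyclins, Ccnd1 rose while Ccnd2 and Ccnd3 fell. Ccnd1, the D-type cyclin best known as a target of growth factor signalling, had 12.9, 11.2, 14.0 and 12.2 CPM with IL-1β, 11.6, 10.6, 10.3 and 11.8 CPM with LPS, and 9.71, 9.29, 9.37 and 10.1 CPM in control. Every treated library lay above every control library, though the lowest LPS library (10.3 CPM) and the highest control library (10.1 CPM) were close. On the log2 scale Ccnd1 changed by 0.39 ± 0.08 (SE) with IL-1β (adjusted p = 1.08e-04) and 0.20 ± 0.08 with LPS (adjusted p = 0.0366). The LPS call was lost with upper-quartile scaling (adjusted p = 0.0507), with the DESeq2 test (0.0798) and without any one of Control replicates 1, 2 and 3 and LPS replicates 1 and 4 (0.0615 to 0.117).

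Ccnd2, the D-type cyclin that granulosa cells induce in response to follicle-stimulating hormone in rodents, had 59.6, 60.8, 52.5 and 53.9 CPM with IL-1β, 59.0, 54.1, 55.7 and 49.4 CPM with LPS, and 62.2, 63.7, 66.1 and 67.6 CPM in control. The treated libraries were all lower than the control libraries. Its log2 change came to -0.19 ± 0.05 with IL-1β (adjusted p = 0.00422) and -0.25 ± 0.05 with LPS (adjusted p = 4.80e-04). Ccnd3, the most broadly expressed D-type cyclin, had 59.6, 61.6, 57.2 and 59.3 CPM with IL-1β, 52.0, 56.4, 55.9 and 57.3 CPM with LPS, and 69.5, 75.9, 68.7 and 73.3 CPM in control. Both treated groups were again below the whole control group, and the falls of -0.28 ± 0.04 with IL-1β (adjusted p = 1.00e-06) and -0.37 ± 0.04 with LPS (adjusted p = 5.07e-09) on the log2 scale were several times their SE. This is the gene whose RefSeq window above held 2 GC boxes and 1 CCAAT box.

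The reads of the D-type cyclins together summed to 129 ± 4.84 CPM with IL-1β, 121 ± 1.77 CPM with LPS and 146 ± 4.38 CPM in control (SD, n = 4 each). Ccnd1 made up 9.79% of them with IL-1β, 9.14% with LPS and 6.57% in control. These are shares of reads and not of transcripts, since gene length was not taken into account.

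Ccne1, the cyclin partner of CDK2 at the entry to S phase, had 7.79, 8.84, 8.16 and 7.99 CPM with IL-1β, 7.61, 8.08, 7.68 and 8.61 CPM with LPS, and 7.80, 7.26, 7.76 and 9.02 CPM in control. The 3 groups overlapped, with the highest and the lowest library of all both in control. The log2 change was 0.04 with IL-1β (95% interval -0.13 to 0.21, adjusted p = 0.755) and 0.00 with LPS (95% interval -0.17 to 0.17, adjusted p = 0.985). The intervals include changes of up to 0.21 in size with IL-1β and 0.17 with LPS.

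**Figure D3:**
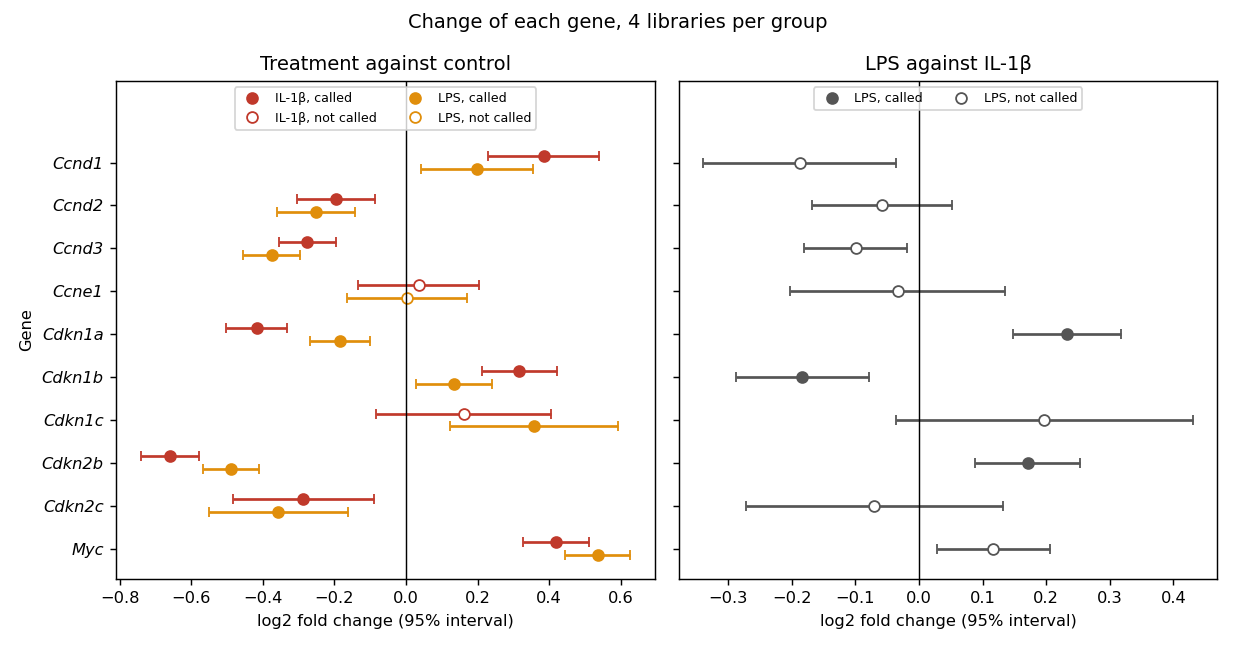
Log2 fold change (x axis) of each gene (y axis) for IL-1β and LPS against control (left) and LPS against IL-1β (right); lines are 95% intervals, filled points are genes called at an adjusted p under 0.05 and open points are not called. Against control (left), Cdkn2b has the lowest value with each treatment and Myc the highest with LPS. The intervals of Ccne1 cross 0 in every comparison.

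The Cip/Kip inhibitors did not move as a block: Cdkn1a was lower with each treatment, whereas Cdkn1b was higher. Cdkn1a, the inhibitor through which p53 halts the cycle, had 49.5, 48.6, 51.2 and 49.2 CPM with IL-1β, 60.0, 54.9, 61.9 and 56.7 CPM with LPS, and 70.5, 65.4, 66.3 and 63.0 CPM in control. The 3 groups stood apart, with IL-1β lowest, LPS between and control highest. The log2 change was -0.42 ± 0.04 with IL-1β (adjusted p = 1.67e-09). With LPS it was -0.18 ± 0.04 (adjusted p = 4.53e-04).

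Cdkn1b, an inhibitor of quiescent cells that is regulated largely through degradation of its protein, had 91.6, 97.1, 91.4 and 93.4 CPM with IL-1β, 83.2, 85.3, 77.9 and 82.2 CPM with LPS, and 85.1, 73.7, 70.1 and 70.1 CPM in control. The IL-1β libraries lay above all others. The LPS and control libraries overlapped, because Control replicate 1 stood at 85.1 CPM, above the other controls. Cdkn1b had a log2 change of 0.32 ± 0.05 with IL-1β (adjusted p = 3.58e-05) and 0.13 ± 0.05 with LPS (adjusted p = 0.0403). The LPS call was lost with DESeq2 size factors (adjusted p = 0.0539), with upper-quartile scaling (0.0657), in a fit to the 8 LPS and control libraries (0.0869) and without any one of Control replicates 2, 3 and 4 and LPS replicates 1, 2 and 4 (0.0764 to 0.130).

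Cdkn1c, an imprinted inhibitor, was the least sampled of the 10 genes, with 84 to 109 counts per library with IL-1β, 93 to 130 with LPS and 68 to 107 in control. It had 4.19, 3.55, 3.29 and 3.59 CPM with IL-1β, 4.75, 4.02, 3.62 and 4.34 CPM with LPS, and 3.08, 3.16, 3.32 and 3.52 CPM in control. The LPS libraries were all above control, while the IL-1β libraries overlapped it. Cdkn1c had a log2 change of 0.16 with IL-1β (95% interval -0.08 to 0.40, adjusted p = 0.282) and 0.36 ± 0.11 with LPS (adjusted p = 0.0127), and the LPS call was lost without LPS replicate 1 (0.29, adjusted p = 0.0562). Summed over the 3 Cip/Kip genes, reads came to 147 ± 1.77 CPM with IL-1β, 145 ± 2.18 CPM with LPS and 144 ± 9.82 CPM in control (SD, n = 4 each), since the lower Cdkn1a was offset by the higher Cdkn1b.

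Both Ink4 inhibitors among the 10 genes fell. Cdkn2b, which in many cells is induced by transforming growth factor β and repressed by MYC, had 43.5, 44.6, 47.8 and 44.8 CPM with IL-1β, 48.5, 51.4, 52.3 and 51.4 CPM with LPS, and 75.0, 72.5, 69.3 and 68.5 CPM in control. The groups did not overlap, and the order was the one seen for Cdkn1a, with IL-1β lowest and control highest. Its log2 change of -0.66 ± 0.04 with IL-1β (adjusted p = 4.46e-14) was the lowest of the 10 genes and larger in size than that of 87.9% of all genes tested. With LPS the change was -0.49 ± 0.04 (adjusted p = 2.20e-11), larger in size than that of 84.2%. Its RefSeq window is the one above with the cAMP response element among 3 GC boxes.

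Cdkn2c had 9.41, 8.67, 9.03 and 8.98 CPM with IL-1β, 6.84, 8.64, 8.81 and 10.1 CPM with LPS, and 9.90, 10.1, 12.6 and 11.7 CPM in control. The IL-1β libraries lay close together below every control library, while LPS replicate 4 reached the level of the lower controls. The log2 change was -0.29 ± 0.10 with IL-1β (adjusted p = 0.0151) and -0.36 ± 0.09 with LPS (adjusted p = 0.00329). The IL-1β call was lost without Control replicate 3 (-0.23, adjusted p = 0.0603) or Control replicate 4 (-0.26, adjusted p = 0.0520). The Ink4 reads of both genes summed to 54.2 ± 1.77 CPM with IL-1β, 59.5 ± 2.80 CPM with LPS and 82.4 ± 1.96 CPM in control (SD, n = 4 each). Cdkn2a, an Ink4 gene outside the 10, was not called with either treatment. Its log2 change was 0.05 ± 0.18 with IL-1β (95% interval -0.33 to 0.43, adjusted p = 0.847). With LPS it was 0.27 ± 0.18 (95% interval -0.09 to 0.63, adjusted p = 0.229). The interval with IL-1β includes a fall as large as that of Cdkn2c.

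Myc rose with each treatment. It had 59.4, 55.3, 54.4 and 57.0 CPM with IL-1β, 60.8, 56.7, 66.9 and 61.0 CPM with LPS, and 44.0, 41.9, 42.7 and 40.5 CPM in control. Treated and control libraries were well apart, and the libraries of the treated groups overlapped each other. The log2 change was 0.42 ± 0.04 with IL-1β (adjusted p = 8.12e-09) and 0.54 ± 0.04 with LPS (adjusted p = 5.84e-11), the highest of the 10 genes with LPS. These are 1.34-fold and 1.45-fold levels relative to control.

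LPS was also compared with IL-1β directly, where 2 of the 10 genes were called higher, 1 lower and 7 not. Over all genes tested 21.9% were called, 11.3% higher and 10.6% lower, and 3 calls among 10 genes is near that background. Cdkn1a was higher with LPS than with IL-1β (log2 difference 0.23 ± 0.04, adjusted p = 1.51e-04), and so was Cdkn2b (0.17 ± 0.04, adjusted p = 0.00270). Cdkn1b was lower (-0.18 ± 0.05, adjusted p = 0.0128). For these 3 genes no LPS library overlapped an IL-1β library, beside 21.6% of all genes tested. In each, the LPS value stood nearer to control than the IL-1β value did. For Cdkn2b, however, the LPS mean (50.9 CPM) was closer to that with IL-1β (45.2 CPM) than to control (71.4 CPM). Ccnd1 (-0.19 ± 0.07, adjusted p = 0.0693), Ccnd3 (-0.10 ± 0.04, adjusted p = 0.0729) and Myc (0.12 ± 0.04, adjusted p = 0.0532) missed the threshold. Their 95% intervals were -0.34 to -0.04, -0.18 to -0.02 and 0.03 to 0.21, which leave a difference between the treatments possible.

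The other genes of the G1 machinery moved in both directions. Of 34 such genes measured, 7 were called higher and 10 lower with IL-1β (median log2 change -0.07, beside 0.01 over all genes), and 6 higher and 4 lower with LPS (median 0.00, beside 0.01). The share called was 50% with IL-1β, beside 47.7% of all genes, and 29.4% with LPS, beside 42.5%. In what follows, values in brackets are log2 changes ± SE. Among the kinases, Cdk2 was lower with IL-1β (-0.29 ± 0.05) and with LPS (-0.24 ± 0.05). Cdk4 was not called with IL-1β (-0.05 ± 0.03, adjusted p = 0.106) or LPS (0.01 ± 0.03, adjusted p = 0.706). Cdk6 was lower with IL-1β (-0.11 ± 0.04, adjusted p = 0.0270) and not called with LPS (0.02 ± 0.04, adjusted p = 0.724). Ccne2, the other cyclin E, was lower with IL-1β (-0.27 ± 0.09, adjusted p = 0.0160) and stood at -0.21 ± 0.09 with LPS (adjusted p = 0.0590).

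Of the pocket proteins that hold E2F in check, Rb1 was slightly higher with IL-1β (0.12 ± 0.05, adjusted p = 0.0267) and not called with LPS (0.06 ± 0.05, adjusted p = 0.294). Rbl1 was instead lower with IL-1β (-0.26 ± 0.08, adjusted p = 0.00737) and at -0.18 ± 0.08 with LPS (adjusted p = 0.0574). Rbl2 (p130) was higher with IL-1β (0.26 ± 0.04) and at -0.01 ± 0.04 with LPS, and it was lower with LPS than with IL-1β (-0.27 ± 0.04, adjusted p = 1.72e-05). Tfdp2, a partner of E2F factors, was higher with IL-1β (0.25 ± 0.06) and at 0.13 ± 0.06 with LPS (adjusted p = 0.0677). The factor E2f5 was higher with IL-1β (0.21 ± 0.07, adjusted p = 0.0120) and LPS (0.27 ± 0.07), and E2f3 was at 0.17 ± 0.08 with IL-1β (adjusted p = 0.0699) and higher with LPS (0.28 ± 0.07). Ccng1, a cyclin induced by p53, was lower with IL-1β (-0.44 ± 0.03) and with LPS (-0.21 ± 0.03). Lin52, a subunit of the MuvB complex that represses cell cycle genes in quiescence, was lower with IL-1β (-0.29 ± 0.08) and at -0.16 ± 0.07 with LPS (adjusted p = 0.0894). Its partner Lin9 was lower with IL-1β (-0.26 ± 0.08), at 0.10 ± 0.08 with LPS (adjusted p = 0.333), and higher with LPS than with IL-1β (0.36 ± 0.08, adjusted p = 0.00194). Between the treatments 3 of the 34 were called higher with LPS and 1 lower, and without LPS replicate 1 the number called was 9.

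**Figure D4:**
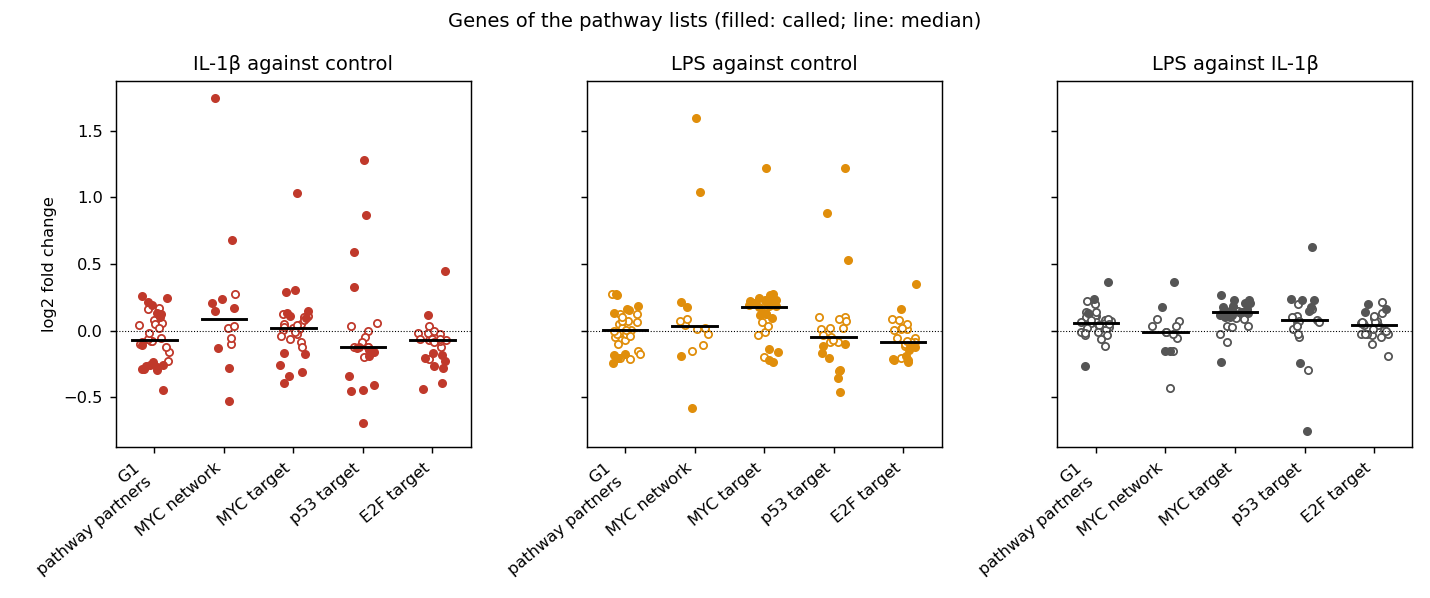
Log2 fold change (y axis) of the genes of 5 lists (x axis) for IL-1β against control, LPS against control and LPS against IL-1β; each point is a gene, filled where called, and the line is the median of the list. The median of the MYC target genes is 0.02 with IL-1β and 0.18 with LPS, against medians of -0.12 and -0.05 for the p53 target genes.

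Genes of the extended MYC network, which include partners and antagonists of MYC and the related MLX factors, moved in both directions. Of 14 measured, 6 were called higher and 3 lower with IL-1β, and 4 higher and 2 lower with LPS, where library size alone gave 7 higher and 1 lower and leaving out Control replicate 3 or 4 or LPS replicate 1, 3 or 4 gave 1 lower. The share called was 64.3% with IL-1β, beside 47.7% of all genes, and 42.9% with LPS, which is near the 42.5% of all genes. Max, the obligate partner of MYC, averaged 64.5 ± 1.99 CPM with IL-1β, 64.0 ± 0.595 CPM with LPS and 63.6 ± 1.75 CPM in control (SD, n = 4 each) and was not called in any comparison. Mycl, a paralog of Myc, had a log2 change of 0.68 ± 0.10 with IL-1β and 1.04 ± 0.09 with LPS, and was higher with LPS than with IL-1β (0.36 ± 0.09, adjusted p = 0.00337). Mlxipl, the glucose-responsive factor also called ChREBP, was higher with IL-1β (1.75 ± 0.20) and LPS (1.59 ± 0.20), with means of 2.26 CPM with IL-1β, 2.01 CPM with LPS and 0.666 CPM in control.

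The MXD proteins pair with MAX and oppose MYC. Mxd1 was lower with IL-1β (-0.28 ± 0.07) and LPS (-0.19 ± 0.07), and Mxd3 was lower with IL-1β (-0.53 ± 0.18) and LPS (-0.58 ± 0.17). Mxi1 (0.24 ± 0.05) and Mxd4 (0.17 ± 0.04) were instead higher with IL-1β, stood at 0.08 ± 0.05 and 0.02 ± 0.04 with LPS (adjusted p = 0.161 and 0.808), and both were lower with LPS than with IL-1β (-0.15 ± 0.05 and -0.16 ± 0.04). Mga, a large repressor that binds MAX, was lower with IL-1β (-0.13 ± 0.03), at 0.05 ± 0.03 with LPS (adjusted p = 0.281), and higher with LPS than with IL-1β (0.18 ± 0.03, adjusted p = 2.66e-04). Between the treatments 2 of the 14 were called higher with LPS and 2 lower, or 28.6% beside 21.9% of all genes, and 1 was called lower without IL-1β replicate 2 or 4 or LPS replicate 3.

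Most of the known MYC target genes measured were higher with LPS than with IL-1β. Of 30 measured, 7 were called higher and 6 lower with IL-1β (median log2 change 0.02), or 12 higher with library size alone. With LPS 21 were called higher and 4 lower (median 0.18), so that 83.3% of the list was called, beside 42.5% of all genes. The share with IL-1β was 43.3%, beside 47.7%. This list too was chosen with earlier results known, so the shares only describe it. For LPS against IL-1β 18 were called higher and 1 lower (median 0.14, beside 0.00 over all genes), with 11 higher and 2 lower without LPS replicate 3. Fbl, the nucleolar methyltransferase fibrillarin, had a log2 change of 0.13 ± 0.04 with IL-1β and 0.27 ± 0.04 with LPS. Wdr12, a ribosome assembly factor, was at -0.04 ± 0.07 with IL-1β (adjusted p = 0.678) and higher with LPS (0.23 ± 0.07, adjusted p = 0.00607). Rcl1, which acts in ribosomal RNA processing, was higher with IL-1β (1.03 ± 0.05) and LPS (1.22 ± 0.05).

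Not all MYC targets moved that way. Ldha, lactate dehydrogenase A, was higher with IL-1β (0.30 ± 0.06), at 0.07 ± 0.06 with LPS (adjusted p = 0.406), and lower with LPS than with IL-1β (-0.23 ± 0.06, adjusted p = 0.0143). Nme1, a nucleoside diphosphate kinase, was lower with IL-1β (-0.39 ± 0.05) and LPS (-0.16 ± 0.05), and Tfrc, the transferrin receptor, was lower with IL-1β (-0.34 ± 0.10) and at -0.20 ± 0.10 with LPS (adjusted p = 0.145). Shmt1, an enzyme of folate metabolism, was lower with IL-1β (-0.31 ± 0.06) and LPS (-0.22 ± 0.05). Srm, spermidine synthase, was lower with IL-1β (-0.26 ± 0.04) and LPS (-0.23 ± 0.04) as well, but its row has a near-identical copy in the table, so its counts are uncertain.

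Of 23 target genes of p53, the factor that drives Cdkn1a, 10 were called lower and 4 higher with IL-1β (median -0.12, beside 0.01 over all genes), so that 60.9% were called, beside 47.7% of all genes. With LPS 7 were called lower and 3 higher (median -0.05), an order that turned round with library size alone, which gave 4 lower and 5 higher. The share called with LPS was 43.5%, beside 42.5% of all genes. Mdm2, the ubiquitin ligase that restrains p53, was lower with IL-1β (-0.34 ± 0.05) and LPS (-0.17 ± 0.05), and higher with LPS than with IL-1β (0.17 ± 0.05, adjusted p = 0.0273), as Cdkn1a was. Sesn2, a stress-induced inhibitor of mTORC1, was lower with IL-1β (-0.69 ± 0.05) and LPS (-0.46 ± 0.05), and the pro-apoptotic gene Bbc3 (Puma) was also lower with IL-1β (-0.46 ± 0.08) and LPS (-0.35 ± 0.08).

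Other p53 targets rose. The death receptor Fas was higher with IL-1β (0.59 ± 0.06) and LPS (1.22 ± 0.06), and the kinase Plk2 was higher with IL-1β (0.87 ± 0.04) and LPS (0.89 ± 0.04). Fdxr, the reductase that feeds electrons to mitochondrial steroid enzymes, was higher with IL-1β (1.28 ± 0.06) and LPS (0.53 ± 0.06), and lower with LPS than with IL-1β (-0.75 ± 0.06, adjusted p = 3.30e-10). Sesn1 was higher with IL-1β (0.33 ± 0.07), at 0.08 ± 0.07 with LPS (adjusted p = 0.331), and lower with LPS than with IL-1β (-0.24 ± 0.07, adjusted p = 0.00802). Between the treatments 6 of the 23 were called higher with LPS and 2 lower, or 34.8% beside 21.9% of all genes.

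Target genes of E2F, which encode enzymes and factors of DNA replication, were called at shares near those of all genes, 40% with IL-1β, beside 47.7%, and 36% with LPS, beside 42.5%. Of the 25, 8 were called lower and 2 higher with IL-1β (median -0.07, beside 0.01 over all genes), a count of higher genes that was 1 with the DESeq2 test and without Control replicate 2 or 4 or IL-1β replicate 2 or 4. With LPS 7 were called lower and 2 higher (median -0.09), an order that turned round with library size alone, which gave 3 lower and 4 higher. The count of 7 was 4 without Control replicate 1 or 3 or LPS replicate 2 or 4, and 11 without LPS replicate 3. Tyms, thymidylate synthase, was lower with IL-1β (-0.39 ± 0.05) and LPS (-0.19 ± 0.05), and Rrm2, a subunit of ribonucleotide reductase, was lower with IL-1β (-0.28 ± 0.07) and LPS (-0.22 ± 0.07). Tk1, thymidine kinase, was lower with IL-1β (-0.18 ± 0.07, adjusted p = 0.0353) and LPS (-0.23 ± 0.07), and Chaf1b, a histone chaperone of replication, was lower with IL-1β (-0.44 ± 0.08) and LPS (-0.22 ± 0.08, adjusted p = 0.0270).

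Few E2F targets were higher. The replicative helicase subunit Mcm3 was higher with IL-1β (0.12 ± 0.04, adjusted p = 0.0246) and at 0.09 ± 0.04 with LPS (adjusted p = 0.0860). Its partner Mcm7 was not called with IL-1β (adjusted p = 0.977) and was higher with LPS (0.16 ± 0.04, adjusted p = 4.87e-04). The chromatin remodeller Hells was higher with IL-1β (0.45 ± 0.07) and LPS (0.35 ± 0.07), but its row too has a near-identical copy, which leaves its counts uncertain. Between the treatments 3 of the 25 were called, all higher with LPS, or 12% beside 21.9% of all genes.

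The genes whose profile over the 12 libraries was most like each of the 10 were sought by Pearson correlation of log2 CPM among 10499 genes. Since the groups differ, any gene with a like response to the treatments scores high, so these values are descriptions. Myc was most like Hmga1 (r = 0.990), a chromatin architectural protein, Plin2 (r = 0.987), which coats lipid droplets, and Ptgs2 (r = 0.985), the inducible cyclooxygenase. Cdkn2b was most like Dapp1 (r = 0.994) and Cdkn1a most like Tanc1 (r = 0.988). Ccnd3 was most like Herc3 (r = 0.983), Cdkn1b most like Galnt18 (r = 0.950), and Ccnd1 most like Fhl3 (r = 0.936). The closest profile to Ccnd2 was that of Nomo1 (r = 0.936) and the closest to Cdkn2c that of Arhgap19 (r = 0.936). Lower values were found for Cdkn1c, with Wdr41 (r = 0.885), and for Ccne1, with Atxn10 (r = 0.830).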

How the data were processed

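The data were whole-number read counts per gene symbol, as the authors deposited them, in 1 table with a column for each of 12 libraries. Per the labels' protocols, total RNA was prepared with a MagMAX kit and polyadenylated RNA was made into stranded TruSeq libraries and sequenced on a HiSeq4000. The build Rnor_6.0 and the tools TopHat2 2.1.1, DESeq2 and SAMtools are those that the submitters' processing notes name. The program that counted reads, its strand setting and the annotation are not given in the sources used here, so reads of overlapping genes may not be told apart. Ccnd3 overlaps RefSeq loci in GRCr8 that have no row in the table. None of the 10 genes had a near-identical row in the table.

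The counts were tested in R 4.3.3 with edgeR 4.0.16: filterByExpr with the groups, TMM, glmQLFit with robust set and group as the sole term over all 12 libraries, two-sided F-tests, and Benjamini-Hochberg adjustment over 17330 genes. The SE was the absolute log2 change divided by the square root of F, and 95% intervals used the moderated degrees of freedom. CPM used TMM-scaled totals, and likeness used log2 CPM with a prior count of 2 and genes of at least 5 CPM on average. The procedure was also tested on simulated data, and no result given here rests on that test. Alternatives were other scalings, filters, DESeq2 1.42.0, limma 3.58.1 (voom), fits to 8 libraries, a replicate block and each library left out.

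The members and all lists were chosen with earlier results of these data known. Named genes were the 2 called ones of highest change and the 2 of lowest change per list and comparison, besides Cdk2, Cdk4, Cdk6, Ccne2, Rb1, Max, Mxd1, Mxi1 and Mdm2. Rbl1 and Cdkn2a were added after seeing the data, as further members of their families. Listed symbols Tfdp1, Cdkn2d, Miz1, Trp53inp1, Tigar and Adgre1 had no row under those names. Emr1 and Zbtb17, other symbols for Adgre1 and Miz1, did have rows and were analysed. Replicate numbers are shared between groups. Same-numbered libraries deviated little together from their group means (r from -0.03 to 0.12), and the main fit did not pair them. Correlations over all genes cannot show whether libraries of the same number shared a culture or batch.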

Additional observations from a re-analysis of the deposited data

How the results depend on the processing

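Over all alternatives run for the 10 genes in the 3 comparisons, 483 of 510 values kept their side of the threshold. Another 19 lost the call and 8 gained one. Where a gene was called in either fit, 0 values reversed. Values not called did change sign in some alternatives, for Ccne1 in each comparison and for Cdkn2c in LPS against IL-1β (-0.16 to 0.02). Lost calls were those of Ccnd1, Cdkn1b and Cdkn1c with LPS and Cdkn2c with IL-1β, given beside those results. Gained calls were all in LPS against IL-1β: Ccnd3 with upper-quartile scaling, library size alone and the replicate block, Myc with no low-count filter (adjusted p = 0.0204), the replicate block (0.0294) and without IL-1β replicate 1 or LPS replicate 2, and Ccnd1 without IL-1β replicate 2.

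With the replicate block, 5 of the 10 genes were called for LPS against IL-1β, against 3 without it, and the block changed no other count of the 10 genes or of the G1 list by over 1.5 times. Leaving out 1 library at a time gave 3 to 9 called G1 list genes for LPS against IL-1β. The same step gave 7 to 8 of the 10 genes called with IL-1β and 6 to 9 with LPS. Counts for the MYC, p53 and E2F lists under these alternatives were added after seeing the data. The MYC targets called lower for LPS against IL-1β numbered 2 in several of these, against 1 in the main result. Cdkn1c, with 68 to 130 counts per library, had the widest intervals.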
